A study of Bos taurus with 18 samples.

Results

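The 13 circular RNAs (circRNAs) described here come from 6 host genes of mRNA decay and microRNA silencing: UPF2, PAN3, TNRC6B, PAPD4, SAMD4A and DROSHA. They are all the circRNAs whose host gene symbol is one of these 6 names, out of 3914 circRNAs from 2220 host genes. Each is named below by its host gene and its annotated length in bases, for example SAMD4A 519. PAPD4 is named TENT2 in the current bovine gene table.

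The cells were MAC-T cells, an immortalised line of bovine mammary epithelial cells, seeded at 200000 cells per well and grown for 12 h. In 2 groups, called *E. coli* and *S. aureus*, they then spent 24 h with heat-inactivated bacteria at a multiplicity of infection of 10, and the third group, the control, received no bacteria. Each group had 3 wells, and each well gave an input library and a library immunoprecipitated (IP) with an antibody against N6-methyladenosine (m6A), a methyl mark on adenosines in RNA. Since all were replicate wells of 1 cell line, a p-value here measures only the spread between wells. The input libraries held 909 to 962 junction reads in *E. coli* wells, 361 to 402 in *S. aureus* wells and 1529 to 2057 in control wells. A junction read spans the back-splice site at which the ends of a circle are joined. The IP libraries had 645 to 857 m6A peaks in *E. coli* wells, 27 to 29 in *S. aureus* wells and 1138 to 1358 in control wells, so the library totals differed between the groups beside every result below, and their part in the results was not tested. As a check of the cell type, the epithelial genes ITGB4, CDH1 and DSP were hosts of circRNAs, while EPCAM and the keratins on the same list of 10 markers were not. The mesenchymal list of 5 markers gave 1 host gene, FN1, and the lists for leukocytes and endothelium gave 0. FN1 had 8 circRNAs with 15 reads, against 6 circRNAs with 20 reads for the 3 epithelial genes together.

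Messenger RNAs are destroyed mainly after their poly(A) tails are shortened, and several of the 6 genes act on that step. UPF2 joins UPF1 to the exon junction complex in nonsense-mediated decay. PAN3 is the adaptor subunit of the PAN2-PAN3 deadenylase, and PAPD4 is a cytoplasmic poly(A) polymerase that lengthens tails. TNRC6B binds Argonaute proteins and recruits deadenylases to mRNAs targeted by microRNAs, and DROSHA cuts primary microRNA transcripts in the nucleus. SAMD4A is the mammalian relative of Smaug, a protein that in *Drosophila* binds hairpins in mRNAs and recruits the CCR4-NOT deadenylase. A circRNA forms when a transcript of its host gene is back-spliced, and it need not act as the host's protein does.

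The 13 circRNAs were covered by few reads, and 2 of them held most of these. Over all input libraries they had 63 junction reads, of which SAMD4A 519 had 25 and PAPD4 502 had 21. The *E. coli* wells held 2, 3 and 7 reads of the 13 circRNAs, the *S. aureus* wells 7, 2 and 4, and the control wells 11, 19 and 8. Thus raw reads were fewer in both treated groups, with 12 in *E. coli* wells, 13 in *S. aureus* wells and 38 in control wells. Per 1000 junction reads of the library, the sums were 4.33 ± 2.96 in *E. coli* wells, 11.2 ± 6.44 in *S. aureus* wells and 7.39 ± 3.60 in control wells (SD, n = 3 each), and the wells of all groups overlapped. Whether the *S. aureus* sum lay above or below the control sum thus depended on the scale. Of the 13 circRNAs, 10 (76.9%) were read in 1 library only, against 85.9% of all circRNAs in the series, and 6 (46.2%) had 1 read in all, against 43.8%. SAMD4A 519 and PAPD4 502 were the 2 among them that passed the filter on low counts (2 or more reads in 3 or more input libraries), which left 79 circRNAs of the series to test. In these bulk libraries, fewer cells and less of a circRNA per cell cannot be told apart.

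**Figure D1:**
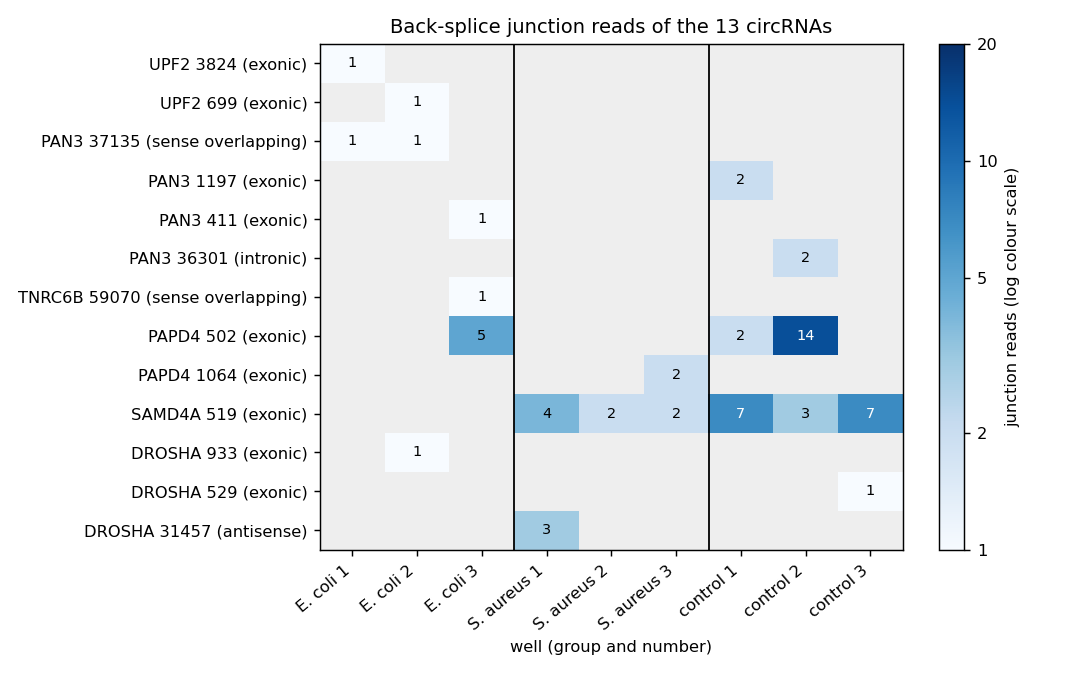
Back-splice junction reads of each of the 13 circRNAs (rows, with the source class) in each of the 9 input libraries (columns). Numbers are raw reads and grey cells hold 0. SAMD4A 519 has reads in all *S. aureus* and control wells and in no *E. coli* well.

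SAMD4A 519, a circRNA of the Smaug relative, was read in every *S. aureus* and control well and in no *E. coli* well. It is exonic and lies on chromosome 10 of bosTau9 (67199994-67200512, plus strand). It had 0, 0 and 0 junction reads in the *E. coli* wells, 4, 2 and 2 in the *S. aureus* wells and 7, 3 and 7 in the control wells. It was the only circRNA of the 3914 (0.0255%) with a read in every *S. aureus* and control well and in no *E. coli* well, and 2 circRNAs had a read in every *S. aureus* and control well. Pooled over wells, it made up 0 of 2790 junction reads in *E. coli* wells, 8 of 1147 in *S. aureus* wells and 17 of 5300 in control wells. Per 1000 junction reads this was 0 (95% exact binomial interval 0 to 1.32), 6.97 (3.02 to 13.7) and 3.21 (1.87 to 5.13) in *E. coli*, *S. aureus* and control wells, and these intervals cover counting error only. With *E. coli* wells set to a floor of 3 reads over the group, the pooled level was 2.98-fold lower after *E. coli* relative to the control. Against *S. aureus* wells it was 6.49-fold lower. Both folds take the pooled rate of the other group as exact and leave out the spread between wells, so they are not lower bounds.

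The wells of SAMD4A 519 did not overlap in any of the 3 comparisons on the scale of reads per 1000 junction reads. *E. coli* wells all lay below control wells for 8.86% of the 79 tested circRNAs and below *S. aureus* wells for 2.53%. *S. aureus* wells, at 10.4, 5.54 and 4.98 per 1000, all lay above the control wells, at 4.58, 1.75 and 3.40, as for 2.53% of tested circRNAs. The exact two-sided permutation test gave p = 0.1 in each of these 3 comparisons, the smallest p that 3 wells against 3 can give. In edgeR's quasi-likelihood test, fitted over all 79 circRNAs, SAMD4A 519 ranked first by p in the comparison of *E. coli* with control and reached an adjusted p of 0.127. It also ranked first for *E. coli* against *S. aureus*, with an adjusted p of 0.129. SAMD4A 519 met the filter on reads through *S. aureus* and control wells only, the groups in which it was read. These ranks, and the shares of the 79 given here and below, are therefore no independent support for a lower level in *E. coli* wells. Neither comparison of SAMD4A 519 passed the adjusted threshold of 0.05, which 0 of 79 circRNAs (0%) passed in any of the 3 comparisons with edgeR or with DESeq2. At an unadjusted p under 0.05, edgeR gave 7 circRNAs for *E. coli* against control, 13 for *S. aureus* against control and 12 for *E. coli* against *S. aureus*, and DESeq2 gave 1, 3 and 4.

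At a fold change of at least 2 with an unadjusted p of at most 0.05, SAMD4A 519 counted as lower after *E. coli* relative to the control (edgeR's unadjusted p was 0.00161), as did 7.59% of tested circRNAs. It also counted as lower after *E. coli* than after *S. aureus* (edgeR's unadjusted p was 0.00304), as did 2.53%. It kept both calls with each well left out in turn. For *S. aureus* against control, the direction depended on the scaling. With TMM, a scaling by the trimmed mean of count ratios, the fit gave a log2 fold change of -0.18 (SE 1.13, edgeR adjusted p = 0.983), total junction reads without TMM gave 1.08, and library sizes set to the quality-filtered (clean) input reads gave -1.10. In these fits the median log2 fold change of all 79 circRNAs was -1.88, -0.74 and -2.65. SAMD4A 519 thus lay 1.70, 1.82 and 1.55 above the median of all tested circRNAs. The filter counts raw reads, and input libraries held 361 to 402 junction reads in *S. aureus* wells and 1529 to 2057 in control wells. It could thus be met more easily through control wells, which would lower these medians. How far the filter set these distances was not tested. They are therefore no independent support for a higher level in *S. aureus* wells.

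PAPD4 502, from the gene of the tail-lengthening polymerase, was read unevenly between wells of 1 group. It is exonic and lies on chromosome 10 (10618645-10622737, plus strand). It had 0, 0 and 5 junction reads in the *E. coli* wells, 0, 0 and 0 in the *S. aureus* wells and 2, 14 and 0 in the control wells. Well 2 of the control group thus held most of its reads, while well 3 of that group held none, and all groups overlapped. The exact two-sided permutation test on reads per 1000 gave p = 0.7 for *E. coli* against control, p = 0.4 for *S. aureus* against control and p = 1 for *E. coli* against *S. aureus*. No fold at a floor of reads is given for *S. aureus* against control, since control wells 1 and 3 together held 2 reads. The edgeR test gave an adjusted p of 0.21 for this comparison and an unadjusted p of 0.00583, within the 16.5% of tested circRNAs that were lower by at least 2-fold with an unadjusted p of at most 0.05. Without control well 2 the unadjusted p was 0.225 (edgeR), with DESeq2 it was 0.198, with total junction reads without TMM 0.0583, and with only these 2 groups in the fit 0.078 (edgeR). For *E. coli* against control, edgeR gave a log2 fold change of -1.45 (SE 1.21, adjusted p = 0.832). PAPD4 1064 shares the start of PAPD4 502 and extends further, to position 10645542. It had 2 reads, both in *S. aureus* well 3.

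**Figure D2:**
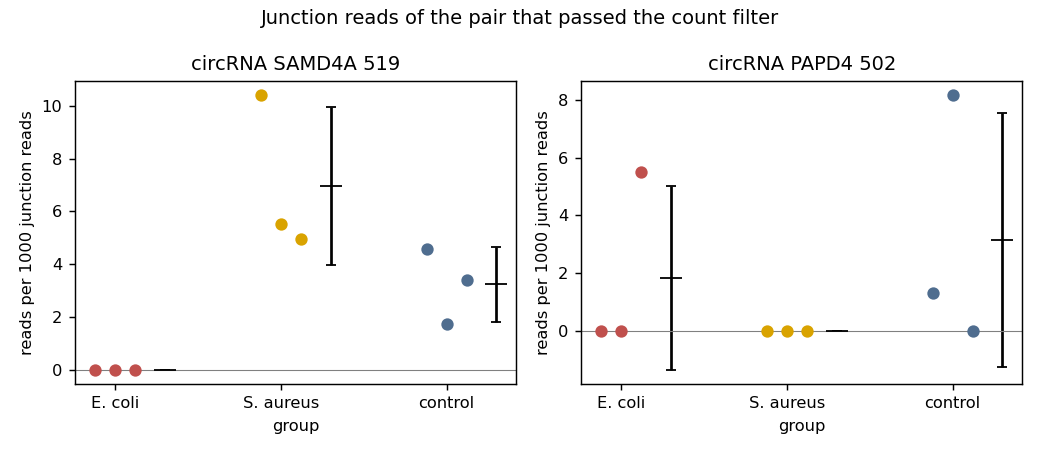
Reads of SAMD4A 519 and PAPD4 502 per 1000 junction reads of the library, by group. Points are the 3 wells, black marks the mean and SD. SAMD4A 519 sits at 0 in all *E. coli* wells, at 4.98 to 10.4 in *S. aureus* wells and at 1.75 to 4.58 in control wells, while the PAPD4 502 groups overlap at 0.

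The remaining circRNAs had 1 to 3 reads each, too few to test. For UPF2, the nonsense-mediated decay factor, UPF2 3824 had 1 read in *E. coli* well 1 and UPF2 699 had 1 in *E. coli* well 2. Both are exonic, and the smaller (chromosome 13, 12319240-12327176, plus strand) lies inside the larger (12306164-12391186). The deadenylase adaptor PAN3 gave 4 circRNAs from overlapping stretches of chromosome 12, on the minus strand. PAN3 37135 (sense overlapping) had 1 read in each of *E. coli* wells 1 and 2, PAN3 411 (exonic) had 1 in *E. coli* well 3, PAN3 1197 (exonic) had 2 in control well 1, and PAN3 36301 (intronic) had 2 in control well 2. With 1 or 2 reads each, no PAN3 circRNA was read in more than 1 group or in any *S. aureus* well. In the series, 620 of 3776 circRNAs with a host gene name were read in an *S. aureus* well. TNRC6B 59070 (chromosome 5, 111598311-111657380, plus strand, sense overlapping) had 1 read, in *E. coli* well 3. DROSHA, the microRNA-processing nuclease, gave DROSHA 933 with 1 read in *E. coli* well 2 and DROSHA 529 with 1 read in control well 3, both exonic and on chromosome 20. DROSHA 31457 lies antisense to the gene, further along the chromosome (42033884-42065340, minus strand), and had 3 reads, all in *S. aureus* well 1.

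In the peak tables used here, the m6A peaks on these circRNAs lay in *E. coli* and control wells only. A peak is a stretch of a circRNA where the IP library was enriched over the input, and its fold enrichment is that ratio. Which reads the ratio counts is not given in the sources used here, so linear RNA of the same exons cannot be told apart from the circle. The tables held 67 peaks on the 13 circRNAs, 21 in *E. coli* wells, 0 in *S. aureus* wells and 46 in control wells. They lay on 6 of the 13 circRNAs (46.2%), against 27.7% of all circRNAs, and merged into 19 regions on UPF2 3824, PAN3 36301, TNRC6B 59070, SAMD4A 519, DROSHA 933 and DROSHA 529. Neither PAPD4 circRNA had a peak in any well, although PAPD4 502 had up to 14 reads in a library. Among the 79 circRNAs that passed the filter on reads, 27 (34.2%) had a peak in any well.

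**Figure D3:**
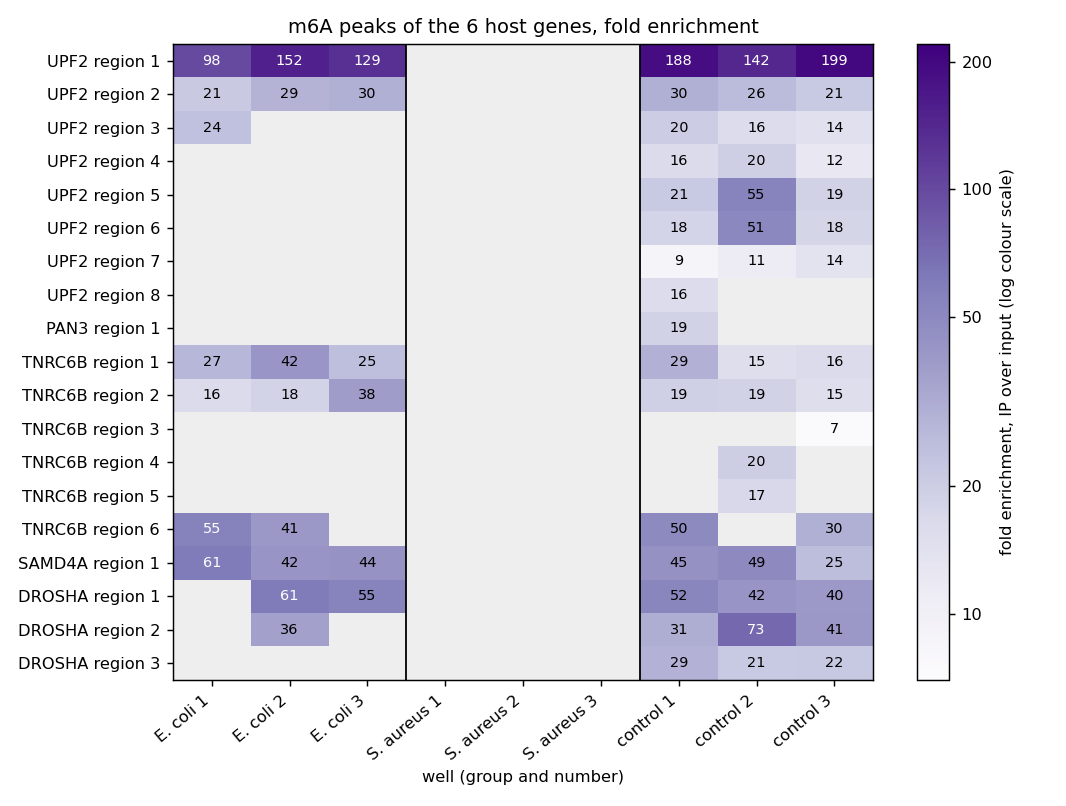
Fold enrichment of the 19 m6A peak regions (rows) in each of the 9 IP libraries (columns), rounded to whole numbers. Grey cells have no peak call. All 19 regions were called in a control well, 9 in an *E. coli* well and 0 in an *S. aureus* well.

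Of the 19 regions, 13 were called in all 3 control wells. None of these 13 was called in an *S. aureus* well, and neither were 98.0% of the 916 regions of the series called in all control wells. In *E. coli* wells, 5 of the 13 were called in all wells, against 47.3% of the 916, and 5 were called in no well, against 19.5%. The latter were regions 4 to 7 of UPF2, all on UPF2 3824, and region 3 of DROSHA, so they are not separate circRNAs. Counted by circRNA, 5 of the 13 had a peak in all 3 control wells, and these had none in *S. aureus* wells, as did 97.3% of 692 circRNAs. Of the 5, UPF2 3824, TNRC6B 59070 and SAMD4A 519 also had one in all 3 *E. coli* wells, against 53.8% of the 692. DROSHA 529 had none in *E. coli* wells, against 16.2%.

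Most regions called again in every *E. coli* well had high scores in the control wells. The score is the peak caller's own measure of evidence and reaches at most 3100 in these tables. Of 5 member regions with a median control score of 1500 or more, 4 were called in all *E. coli* wells, against 91.6% of 226 regions in the series. Of the 7 with a median control score under 500, 1 was called in all *E. coli* wells and 5 in none. In the series, 3.08% of regions with a score under 100 were called in all *E. coli* wells and 55.4% in none. For scores from 100 to 500, 17.4% were called in all and 34.8% in none. The part of the score in the absence of a call was not tested. The false discovery rate in the tables was 1.74% to 40.1% for member peaks in *E. coli* wells and 13.9% to 100% in control wells, and 9 of the 21 member peaks in *E. coli* wells and 0 of the 46 in control wells were at or under 5%. In the series this held for 62.4% of 2155 *E. coli* peaks and for 0 of 3727 control peaks. At that limit 3 of the 13 circRNAs kept a peak in *E. coli* wells and 0 in control wells, against 4 and 6 without it. The lowest rate of any control peak in the series was 10%, so no control peak could be kept. In *E. coli* wells the limit dropped UPF2 region 1, with scores of 2368 to 3100 and rates of 27.4% to 40.1%. It kept UPF2 region 3, with a score of 52.7 and a rate of 1.85%.

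UPF2 3824 carried the peak with the highest fold enrichment of all 13 circRNAs and the largest number of regions among them. It had 8 regions, and 9 of 1086 circRNAs with a peak (0.829%) had 8 or more. Region 1 covers the first 380 bases of the circle's span (chromosome 13, 12306164-12306543). Its fold enrichment was 98.25, 151.5 and 129.1 in the *E. coli* wells and 187.6, 142.5 and 199.5 in the control wells. Its mean ranked 12 of 454 regions called in all *E. coli* wells and 6 of 916 called in all control wells. The group means were 126 ± 26.7 in *E. coli* wells and 177 ± 30.1 in control wells (SD, n = 3 each), and the wells overlapped. Region 2 starts 2791 bases from the start and is 780 bases long. It was also called in all wells of both groups, at 26.6 ± 4.87 in *E. coli* wells and 25.7 ± 4.41 in control wells (SD, n = 3 each).

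The other UPF2 regions were called mainly in control wells. Region 3 starts 13076 bases from the start, at the first base of UPF2 699, and was listed for the larger circle only. It was called in *E. coli* well 1, at 23.95, and in all 3 control wells, at 14.3 to 20.1. Regions 4 to 8 lie between 59951 bases from the start and the last base of the circle. None of these 5 was called in an *E. coli* well. Regions 4 to 7 were called in all 3 control wells and region 8 in control well 1 alone. Their fold enrichments ranged from 8.61 to 54.9 in control wells, and region 5 (18.7 to 54.9) and region 6 (17.8 to 50.9) were highest in control well 2. The *E. coli* calls of UPF2 thus lay nearest the start of the span in genome positions. Calls covered 34.5% of the annotated 3824 bases in any *E. coli* well, against 52.6% in any control well. In the circle that start is joined to the last base, on which region 8 ends.

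**Figure D4:**
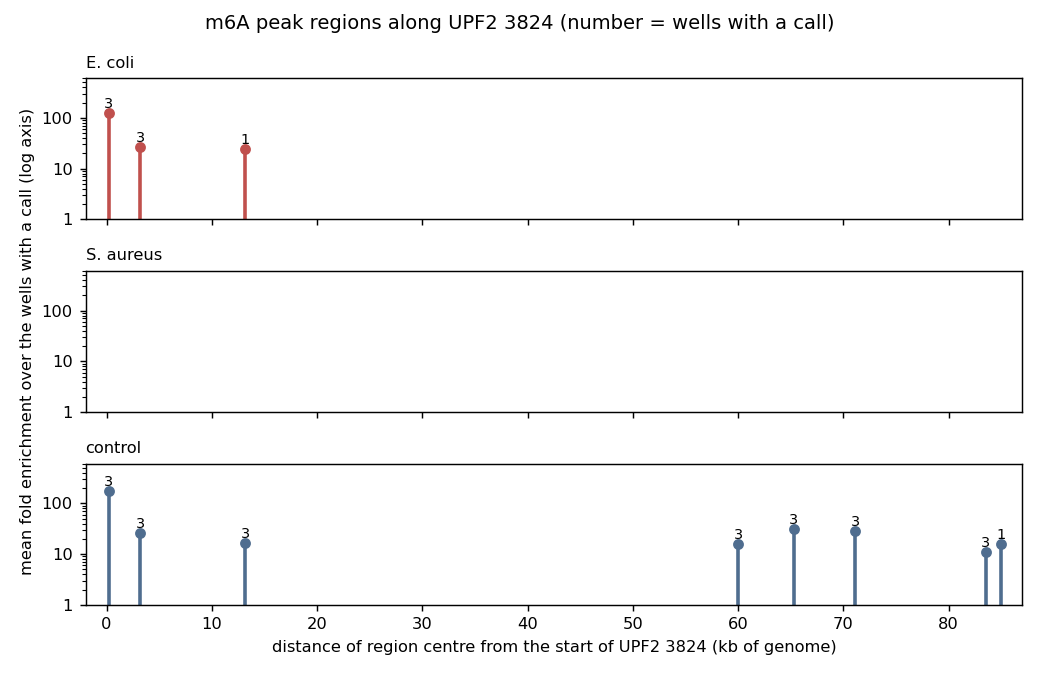
m6A peak regions along UPF2 3824 in the *E. coli*, *S. aureus* and control group (panels). The x axis is the distance from the circle's start in kb of genome, the height is the mean fold enrichment over the wells with a call (log axis), and the number is how many of 3 wells had the call. *E. coli* calls are at 3 places near the start of the span in genome positions, control calls at 8 places along the whole span.

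TNRC6B 59070, the circRNA of the Argonaute-binding scaffold, had 6 regions, of which 2 were called in all *E. coli* and control wells. Region 1 (chromosome 5, 111602812-111603806) had fold enrichments of 26.96, 41.7 and 24.7 in the *E. coli* wells and 29.3, 15.0 and 15.9 in the control wells. Region 2 (111604829-111608712) had 16.1, 18.3 and 38.0 in the *E. coli* wells and 19.3, 18.5 and 15.1 in the control wells. Both overlapped between groups. Region 6, at the end of the circle, was called in *E. coli* wells 1 and 2, at 55.4 and 40.8, and in control wells 1 and 3, at 49.9 and 30.1. Regions 3, 4 and 5 were each called in 1 control well and in no *E. coli* well.

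For SAMD4A 519 the single region covered all 519 bases and was called in all *E. coli* and control wells. Its fold enrichment was 60.9, 42.3 and 44.2 in the *E. coli* wells and 44.65, 48.95 and 25.15 in the control wells, and the groups overlapped. The means were 49.1 ± 10.2 in *E. coli* wells and 39.6 ± 12.7 in control wells (SD, n = 3 each). The *E. coli* group thus had a peak in 3 of 3 wells and a junction read in none of them. This was so for 257 of the 386 circRNAs (66.6%) with a peak in all *E. coli* wells. *S. aureus* wells showed the reverse, with reads in 3 of 3 and a peak in none. Over all circRNAs, a peak was present in 1.15% of the 693 combinations of circRNA and *S. aureus* well with a read.

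The peaks of DROSHA lay on its 2 exonic circRNAs, and none was on the antisense circle. Region 1 covers the first 840 bases of DROSHA 933 (chromosome 20, 42005669-42006508), and region 2 its last 93 bases (42010425-42010517), so both together cover all 933 bases. Region 1 was called in *E. coli* wells 2 and 3, at 60.8 and 54.9, and in the control wells at 52.2, 42.4 and 40.3. Region 2 was called in *E. coli* well 2, at 36.5, and in the control wells at 30.8, 73.2 and 40.7. Region 3 covers the first 232 bases of DROSHA 529 (42016627-42016858) and was called in no *E. coli* well, against 29.03, 21.25 and 21.67 in the control wells. PAN3 had 1 peak, on the intronic PAN3 36301 (chromosome 12, 31901567-31902762), in control well 1 alone, with a fold enrichment of 18.5. That well had no junction read of this circle.

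None of the 5 regions called in every *E. coli* and control well passed the test of a difference in fold enrichment. In limma over all 433 such regions of the series, 0 regions (0%) passed an adjusted p of 0.05 and 39 had an unadjusted p under 0.05. TNRC6B region 1 was nearest, with a log2 difference (*E. coli* minus control) of 0.66 (SE 0.34, limma adjusted p = 0.498). It was followed by UPF2 region 1 at -0.49 (SE 0.33, limma adjusted p = 0.647). TNRC6B region 2 gave 0.35 (SE 0.33), SAMD4A region 1 gave 0.35 (SE 0.38) and UPF2 region 2 gave 0.04 (SE 0.33), with limma adjusted p of 0.806, 0.839 and 0.963. The median log2 difference over all 433 regions was 0.19. With each library divided by its median ratio, a setting chosen after seeing the data, the log2 differences were 0.48 for TNRC6B region 1, 0.17 for TNRC6B region 2 and 0.17 for SAMD4A region 1. Those of UPF2 were -0.67 for region 1 and -0.14 for region 2, so the sign of UPF2 region 2 depended on the scaling. Exact two-sided permutation tests gave p = 0.2 for UPF2 region 1, p = 0.3 for TNRC6B region 1, p = 0.6 for TNRC6B region 2, p = 0.6 for SAMD4A region 1 and p = 1 for UPF2 region 2. The scores of 3 of these 5 regions were lower in every *E. coli* well than in every control well, as were those of 73.7% of the 433.

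**Figure D5:**
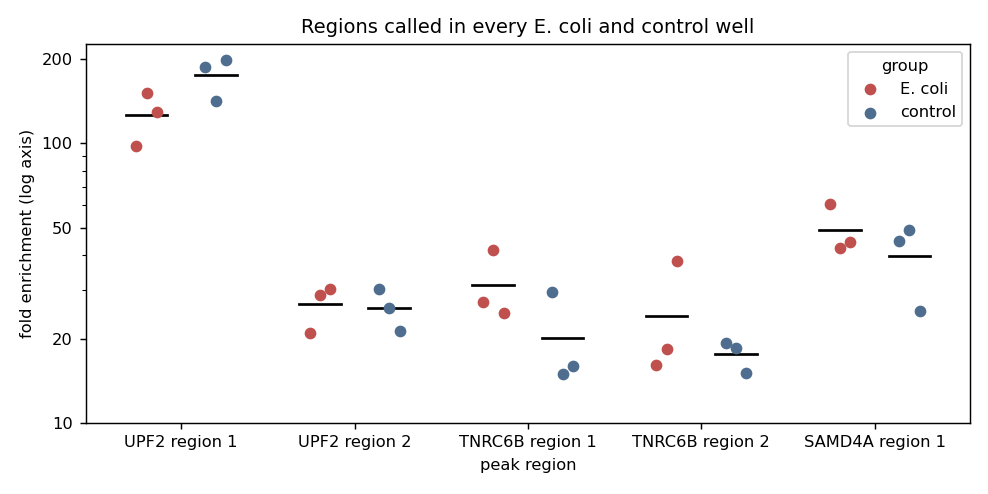
Fold enrichment (log axis) of the 5 regions called in every *E. coli* and control well. Points are wells and black lines are group means. The wells of both groups overlap in all 5 regions.

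Peaks and junction reads seldom met in the same well. The 13 circRNAs had a peak in 27 combinations of circRNA and well, and a junction read was present in 7 of these (25.9%), against 19.1% over all circRNAs. These were 3 of 11 in *E. coli* wells and 4 of 16 in control wells. Of the 19 regions, 7 reached an end of their circRNA, against 60.0% of regions in the series. Among exonic circRNAs these were 6 of 12 member regions, against 56.6% in the series.

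Other genes of decay and silencing had few reads per circRNA, as had the series as a whole. The 7 lists for these pathways, without the 6 host genes above, hold 155 gene names, of which 41 were hosts of 68 circRNAs. The 68 had 2.46 junction reads each on average, against 2.36 for all circRNAs with a host gene name. Their summed reads were 49 in *E. coli* wells, 14 in *S. aureus* wells and 104 in control wells. A peak was found on 10 of the 68 in *E. coli* wells, on 0 in *S. aureus* wells and on 17 in control wells, in all 3 wells for 3 in *E. coli* wells and 10 in control wells. A peak in any well of the group was thus on 14.7% of them in *E. coli* wells, 0% in *S. aureus* wells and 25.0% in control wells, against 18.9%, 0.821% and 26.9% of all circRNAs with a host gene name. For a peak in all 3 wells the shares were 4.41% in *E. coli* wells and 14.7% in control wells, against 10.1% and 18.0%. Of the 68, 2 passed the filter on reads, and 0 passed the adjusted threshold of edgeR in any comparison.

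Reads of the genes named next are summed over all circRNAs of a gene, and no difference between groups was tested for them. All circRNAs with a host gene name had 2706 reads in *E. coli* wells, 1086 in *S. aureus* wells and 5130 in control wells. Of all circRNAs in the series, 85.9% were read in 1 library only, so reads confined to 1 group were common. The share of host genes read in control wells only was not counted. Among deadenylation genes, CNOT2 and CNOT6L, both of the CCR4-NOT complex, had 9 reads each, and neither had a peak. CNOT2 had 3 reads in *E. coli* wells, 0 in *S. aureus* wells and 6 in control wells, and CNOT6L had 6 in *E. coli* wells, 0 in *S. aureus* wells and 3 in control wells. The decapping factors PATL1, DCP2 and EIF4ENIF1 were read in control wells only, with 8, 4 and 4 reads, and EIF4ENIF1 had a peak in 3 of 3 control wells. All 6 hosts on the decapping list together had 2 reads in *E. coli* wells, 1 in *S. aureus* wells and 18 in control wells. In nonsense-mediated decay, NBAS had 6 reads and no peak, and ETF1, a translation release factor, had a peak in 1 *E. coli* and 3 control wells. The exosome subunit EXOSC9 had a peak in no *E. coli* well and in 3 control wells. AGO2, an Argonaute protein to which TNRC6B binds, had 1 read in each group and a peak in 1 *E. coli* and 3 control wells. PAPD7, of the same family as PAPD4, had 8 reads, all in control wells. Among the RNA-binding regulators, STAU2 had 1 read in *E. coli* wells, 0 in *S. aureus* wells and 16 in control wells, and STAU1 had 1, 4 and 9.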

How the data were processed

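Input libraries of the 9 wells gave junction reads and IP libraries gave m6A peaks. Per the labels and the paper, the authors used cutadapt 1.9.3 on paired 150-base reads, STAR 2.5.1b for alignment (bosTau9) and DCC to find circRNAs. The authors deposited raw junction counts per library. Their 9 columns of normalized log2 values, made with edgeR 3.16.5, were not used. For each IP library they deposited peaks with a ratio (fold enrichment), a score and a percent false discovery rate. The peak caller is not given in the sources used here. Positions are counted from 1.

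The test of counts was that of edgeR 4.0.16 in R 4.3.3 (quasi-likelihood, TMM, total junction reads as library size, 1 fit over 3 groups) for circRNAs having 2 or more reads in 3 or more libraries. Calls needed an adjusted p under 0.05 or, separately, the paper's limits (fold change of 2, p of 0.05). SE was the fold change divided by the root of F. Peaks on a strand sharing at least 1 base were merged, and log2 ratios of regions called in all *E. coli* and control wells were tested with limma 3.58.1, p-values by Benjamini-Hochberg. Permutation tests and intervals used scipy 1.17.1. Both tests were first run on simulated data. The pass condition for edgeR was set at a depth far above that of these libraries and with less spread between wells. It does not show the power of the test at these counts. Alternatives covered scaling (DESeq2 1.42.0 included), filters, pairing and left-out wells. Named are all circRNAs of the 6 host genes and, per list, up to 3 hosts with most reads. The circRNAs and gene lists were chosen with earlier results of these data known. Sequences were not analysed here, since no genome of this build was used.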

Additional observations from a re-analysis of the deposited data

Results flagged for a closer look

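SAMD4A 519 stood out because the wells of the *E. coli* and the *S. aureus* group moved in opposite directions from the control mean. On the scale of reads per 1000 junction reads, the difference from the control group was -3.24 after *E. coli*, where all 3 wells were at 0, and 3.73 after *S. aureus*, where all 3 wells were above every control well. The direct comparison of *E. coli* with *S. aureus* had an adjusted p of 0.129 (edgeR), and its range was 0.0738 to 0.796 over the other settings run. The *S. aureus* side of this pattern held for reads per 1000 and changed sign with the scaling, as given above.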

How the results depend on the processing

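No circRNA passed an adjusted p of 0.05 in any comparison of junction reads under any alternative run. The number passing a 2-fold change with p of at most 0.05 changed more. It was 7 for *E. coli* against control, 1 with DESeq2, 2 with the well number as replicate block, and 3 to 8 with single wells left out (3 without *E. coli* well 1). For *S. aureus* against control it was 13, 3 with DESeq2, 2 without TMM, 26 with clean input reads, 22 with the filter at 2 libraries, 22 with no filter and 4 to 17 with wells left out (4 without *S. aureus* well 1, 5 without well 3, 8 without control well 2 or 3). For *E. coli* against *S. aureus* it was 12, 4 with DESeq2, 6 without TMM, 7 with 2 groups in the fit, 4 with the replicate block and 4 to 12 with wells left out (4 without *S. aureus* well 1, 6 without well 3, 7 and 6 without *E. coli* well 1 and 2). Well numbers did not pair the wells: correlations of same-numbered wells were -0.09 to 0.10, and in 7 of 18 comparisons of a well with another group's wells for junction reads, and 2 of 6 for fold enrichment, it correlated best with its own number. With the replicate block SAMD4A 519 had an adjusted p of 0.377 for *E. coli* against control.

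Of 156 values of single circRNAs and regions under alternatives, 9 changed sign and 0 had an adjusted p under 0.05. SAMD4A 519, *S. aureus* against control, was 1.08 without TMM and -0.45 to 0.11 with wells left out. PAPD4 502, *E. coli* against control, was -5.18 to 0.76 (0.76 without control well 2). Not among the 9, its log2 fold change for *E. coli* against *S. aureus* fell from 3.76 to 0 without *E. coli* well 3, which held all its *E. coli* reads. UPF2 region 2 was -0.14 with libraries divided by their median ratio, an alternative chosen after seeing the data, and -0.084 to 0.20 with wells left out. TNRC6B region 2 was -0.030 to 0.59. Regions past the adjusted threshold numbered 0 to 1 with wells left out (1 without *E. coli* well 1 or 2). At a false discovery rate of at most 5%, circRNAs with a peak numbered 3 in *E. coli* wells (4 without this limit) and 0 in control wells (6 without it, 5 to 6 with wells left out).

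The ratio of summed reads was 0.316 for *E. coli* over control (0.586 per 1000 junction reads, 0.197 to 0.421 with wells left out) and 0.342 for *S. aureus* over control (1.52 per 1000, 0.237 to 0.456). For *E. coli* over *S. aureus* it was 0.923 (0.385 per 1000, 1.14 scaled by clean input reads, 0.577 to 1.33 with wells left out, 0.577 without *E. coli* well 3). Reads limit the values of junction counts, since 11 of the 13 circRNAs had 1 to 3 reads.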

Other observations

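The m6A machinery itself was also among the host genes. Of 17 names on a list of m6A readers, writers and erasers, 7 were hosts of 16 circRNAs, with 16 junction reads in *E. coli* wells, 6 in *S. aureus* wells and 13 in control wells. All circRNAs with a host gene name had 2706, 1086 and 5130. The 6 *S. aureus* reads were of 1 circRNA, and no difference was tested. A peak was on 43.8% of the 16 in *E. coli* wells, 0% in *S. aureus* wells and 50% in control wells. Over all circRNAs with a host gene name the shares were 18.9%, 0.821% and 26.9%. ZC3H13, a subunit of the m6A writer complex, had 7 circRNAs with 8 reads in *E. coli* wells, 6 in *S. aureus* wells and 5 in control wells, and a peak in 3 *E. coli*, 0 *S. aureus* and 3 control wells. The demethylase FTO had 6 reads in *E. coli* wells, 0 in *S. aureus* wells and 1 in control wells, and no peak. None of the 16 passed the filter on reads.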
